A study of Mus musculus with 6 samples.

Results

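The S100 proteins and annexins were followed in mouse stem-like medulloblastoma cells through 10 genes, 7 of them S100 genes (S100a1, S100a4, S100a6, S100a10, S100a11, S100a13 and S100a16) and 3 annexin genes (Anxa2, Anxa5 and Anxa6), out of 24063 gene symbols in the deposited count tables. The genes were chosen by the RNA level of S100a11, which was silent with the control guide and on with either guide against the long noncoding RNA Miat, and its relatives and binding partners were listed beside it. The values that separate the Miat guides from the control therefore chose the set and are given as a description, without a test. Tests on members are given only between the 2 Miat guides, for the 8 members that passed the filter on low counts. That contrast compares the 4 Miat libraries, while the control libraries enter its filter, scaling and estimate of the spread. S100a4 passed the filter through the control libraries alone, with between 2 and 5 counts in each Miat library.

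Medulloblastoma is a tumour of the cerebellum. All groups carried the genotype Math1-Cre; SmoM2, in which Cre driven by the Math1 (Atoh1) promoter of granule neuron progenitors switches on an active Smoothened, the transducer of Hedgehog signals. The cells received a CRISPR guide named for the yeast protein Gal4 (sgGal4-4, marked WT in the labels) or a guide named for Miat (sgMiat-6 or sgMiat-96, marked as Miat knockdown), with 2 libraries per guide and 6 in all. No source used here gives the age of the animals, the time after the guides or the number of clones or cultures, so the p-values measure the spread between these libraries, which may be technical.

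S100 proteins are small calcium sensors that pair up through EF-hand folds and, on binding calcium, expose a surface that grips other proteins. Annexins bind acidic membrane lipids when calcium rises, and several carry an N-terminal tail that an S100 pair holds, which brings membranes together during vesicle traffic and membrane repair. The best known complex joins S100a10, which has lost calcium binding, to Anxa2 and presents plasminogen activators at the cell surface. S100a11 binds the tail of Anxa1, and S100a6 binds Anxa11. In the brain S100 proteins are known mainly from glia.

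The deposited counts summed to between 18438891 and 19650274 per library with 1 transcript row kept per gene. Levels are given in CPM, counts scaled to a common library size with TMM factors that balance the bulk of genes, and 3 counts were worth between 0.149 CPM (sgMiat-6 replicate 1) and 0.173 CPM (sgMiat-96 replicate 2) after that scaling. Miat itself had 140 and 139 counts in the control libraries and 0 in each of the 4 Miat libraries. Of the markers for the labelled cells, Sox2, Nes and Fabp7 lay between 213 and 1635 CPM in every library, Hes1 between 62.3 and 129 CPM and Msi1 between 21.7 and 35.7 CPM. Fut4 and Prom1, used to sort stem-like tumour cells, had 0 and at most 1 counts per library. Atoh1, which defines granule neuron progenitors and names the Cre driver, also had 0 counts in all 6 libraries, and Barhl1 of the same lineage had at most 4. The 10 granule progenitor markers together summed to between 736 and 1122 CPM, most of it from Ccnd2, with Zic1 between 48.2 and 115 CPM. Of the 10 members, 8 passed the filter on low counts and entered the fit, and S100a1 and S100a6 did not.

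S100a11 lies on the plus strand of chromosome 3 from 93520488 to 93526287 (GRCm38, protein coding). It had 0 and 1 counts in the control libraries, 768 and 811 with sgMiat-6, and 1248 and 945 with sgMiat-96. In scaled units that was 0 and 0.0507 CPM, 38.1 and 41.4 CPM, and 70.2 and 54.5 CPM. All 4 Miat libraries lay far above both controls, and both sgMiat-96 libraries lay above both sgMiat-6 libraries. With 1 control count against 3772 in the Miat libraries, the ratio was 1972 with a 95% counting interval of 354 to 77918 (exact Clopper-Pearson, counting error only). In bulk RNA a gene turned on in a few cells and a gene raised in all cells cannot be told apart.

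The annotated start regions of 3 S100 genes are shown because these genes changed most and in opposite directions. Each window runs from 250 bases before to 50 bases after a RefSeq start on GRCm38.p6. S100a11 has chr3:93520246-93520545 (plus strand), S100a13 has chr3:90514185-90514484 (plus strand), and S100a16 has chr3:90540896-90541195 (plus strand), the later of its pair of listed starts and the one nearest to the start of the transcript counted here. Capitals mark matches to TGAGTCA (the AP-1 site), GGGCGG (the GC box of Sp1) or TATAAA (the TATA box) on either strand.

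S100a11: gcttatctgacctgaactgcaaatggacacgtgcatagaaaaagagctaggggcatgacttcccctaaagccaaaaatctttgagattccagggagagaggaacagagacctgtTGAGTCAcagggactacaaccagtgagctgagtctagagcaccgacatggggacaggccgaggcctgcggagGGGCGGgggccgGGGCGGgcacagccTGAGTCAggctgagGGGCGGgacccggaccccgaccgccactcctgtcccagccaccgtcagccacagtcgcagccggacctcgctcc

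S100a13: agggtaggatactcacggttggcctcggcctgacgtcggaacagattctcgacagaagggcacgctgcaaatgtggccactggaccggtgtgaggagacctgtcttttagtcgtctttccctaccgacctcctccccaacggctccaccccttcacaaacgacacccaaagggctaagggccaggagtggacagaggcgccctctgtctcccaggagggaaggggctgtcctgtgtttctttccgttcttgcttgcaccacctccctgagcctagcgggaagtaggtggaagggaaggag

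S100a16: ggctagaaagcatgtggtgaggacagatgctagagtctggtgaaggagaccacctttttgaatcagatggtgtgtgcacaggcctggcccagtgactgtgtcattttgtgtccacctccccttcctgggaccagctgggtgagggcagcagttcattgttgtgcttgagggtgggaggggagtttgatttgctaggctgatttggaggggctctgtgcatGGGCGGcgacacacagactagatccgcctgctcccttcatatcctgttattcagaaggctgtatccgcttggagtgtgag

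The S100a11 window holds TGAGTCA at 2 places, 136 and 38 bases before the start, and GGGCGG at 3 places, 64, 52 and 24 bases before it, with no overlap between the motifs. TGAGTCA occurs at least once in 5.2% of 32851 mouse start windows of the same length, and at least 2 matches occur in 73 windows, or 0.222%. Anxa2 has 1 match to TGAGTCA, 95 bases before its start on chromosome 9. Its window also holds GGGCGG at 3 places, 190, 48 and 24 bases before the start, and TATAAA 17 bases before it. The windows of S100a1, S100a4, S100a6, S100a13, S100a16 and Anxa5 have 0 matches to it, and S100a4 has TATAAA 31 bases before its start. GGGCGG is found in 35.7% of all windows and TATAAA in 13.6%. The S100a11 window has 15 CG dinucleotides and that of S100a13 has 14, against 4 in the S100a16 window shown, 2 in the S100a4 window and a median of 7 over all windows. Anxa5 has 16 and Anxa2 has 13, although both moved little, and S100a1 has 11 and S100a6 has 6. These matches describe the letters only, since no binding or methylation was measured.

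S100a13 takes part in the release of the growth factor Fgf1, a protein secreted without a signal peptide. It was near silent in the control, with 0 and 2 counts, and had 43 and 46 counts with sgMiat-6 and 117 and 104 with sgMiat-96. These correspond to 2.13 and 2.35 CPM with sgMiat-6 and to 6.58 and 6.0 CPM with sgMiat-96. The 3 groups did not overlap, with sgMiat-6 in the middle. The ratio of the Miat libraries to the control was 81.0, with a counting interval of 22.2 to 672.

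S100a10, the annexin partner also known as p11, was the most abundant S100 transcript of every library. Its level was 123 CPM in each control library, 339 and 386 CPM with sgMiat-6, and 376 and 332 CPM with sgMiat-96. The Miat libraries all lay above the controls, and the libraries of the 2 Miat guides interleaved. The fitted log2 fold change for both guides was 1.54 ± 0.10 (SE), a 2.91-fold higher level. Taken alone, sgMiat-6 gave 1.56 ± 0.11 and sgMiat-96 gave 1.52 ± 0.11.

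S100a16, a broadly expressed S100 protein, went the other way. It had 1200 and 1299 counts in the control libraries and between 15 and 24 in the Miat libraries. The levels were 61.8 and 65.8 CPM in the control, 0.744 and 1.17 CPM with sgMiat-6, and 1.35 and 1.04 CPM with sgMiat-96. No Miat library came near a control, and the Miat guides overlapped. The fitted log2 fold change was -5.89 ± 0.16 (SE), a 59.3-fold lower level.

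S100a4, which binds nonmuscle myosin and is known from motile and metastatic cells, was low throughout. Its counts were 21 and 30 in the control, 2 and 5 with sgMiat-6, and 2 in each sgMiat-96 library. Every Miat library lay below both controls, and the fitted log2 fold change was -3.14 ± 0.50 (SE). With 51 control counts against 11, the control level was 8.87 times that of the Miat libraries, with a counting interval of 4.56 to 18.9.

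The members outside the fit were almost absent. S100a1, best known from heart and skeletal muscle, had 0 and 4 counts in the control, 2 and 3 with sgMiat-6, and 8 and 9 with sgMiat-96. S100a6, also called calcyclin, had 1 count in 1 control library and 0 in the other 5. A count of 0 allows a level of up to 0.173 CPM in sgMiat-96 replicate 2, the highest such limit of the 6 libraries, so S100a6 was not detectable at this depth with either Miat guide.

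**Figure D1:**
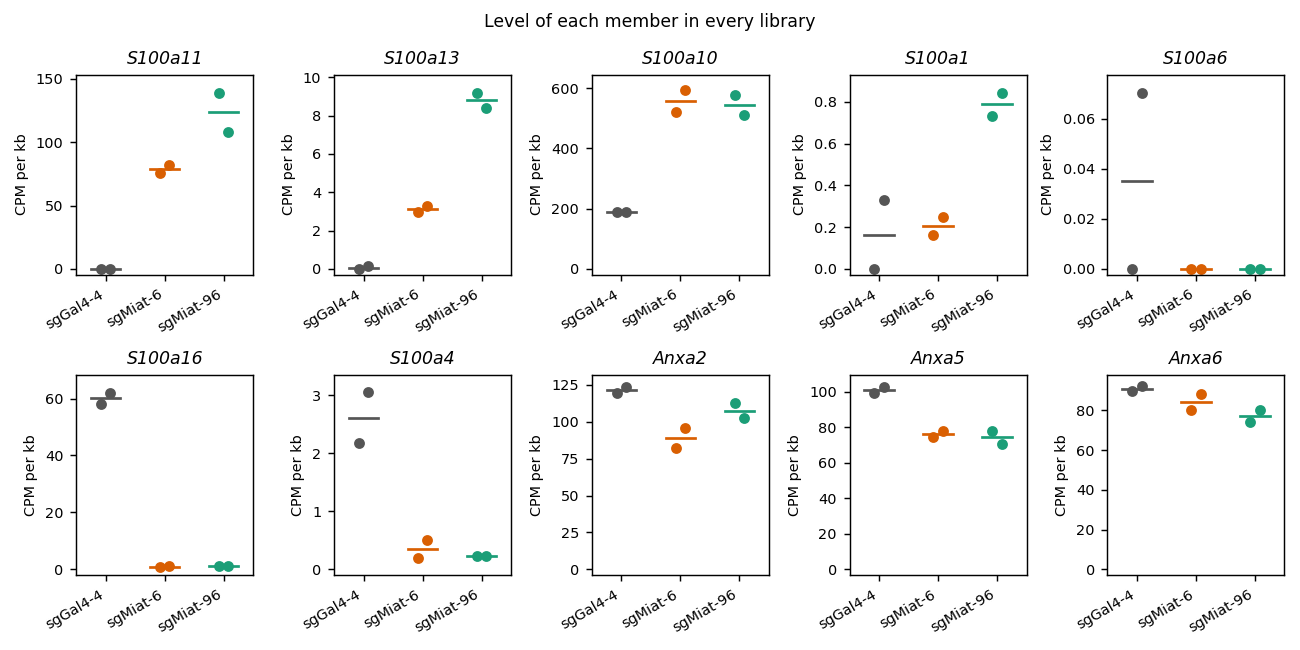
Level of each of the 10 members in every library, in CPM per kilobase of transcript, with a separate linear axis per gene. Points are the 2 libraries of a guide and the short line is their mean. S100a11 and S100a13 sit near 0 in the control, S100a16 sits near 0 with both Miat guides, and the annexins stay within a narrow range.

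The annexin members moved little. Anxa2, the partner of S100a10, had 164 and 170 CPM in the control, 113 and 132 CPM with sgMiat-6, and 155 and 141 CPM with sgMiat-96. All Miat libraries were below both controls, with sgMiat-96 nearer to them. The fitted log2 fold change for both guides was -0.31 ± 0.10 (SE).

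Anxa5, whose protein binds phosphatidylserine and is used to stain dying cells, had 171 and 177 CPM in the control, 128 and 134 CPM with sgMiat-6, and 134 and 122 CPM with sgMiat-96. Its Miat libraries lay together below the controls, with a fitted log2 fold change of -0.42 ± 0.09. Anxa6, the large annexin of endosomes and cholesterol traffic, had 238 and 245 CPM in the control, 214 and 235 CPM with sgMiat-6, and 197 and 213 CPM with sgMiat-96. Here the gap between the lowest control and the highest Miat library was small, and the fitted log2 fold change was -0.18 ± 0.09. Across all 13220 genes tested the median size of a log2 fold change was 0.54, above each of these 3 shifts. Removing a trend over transcript length moved Anxa2 and Anxa5 to -0.68 each and S100a10 to 1.03, and left Anxa6 at -0.16.

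**Figure D2:**
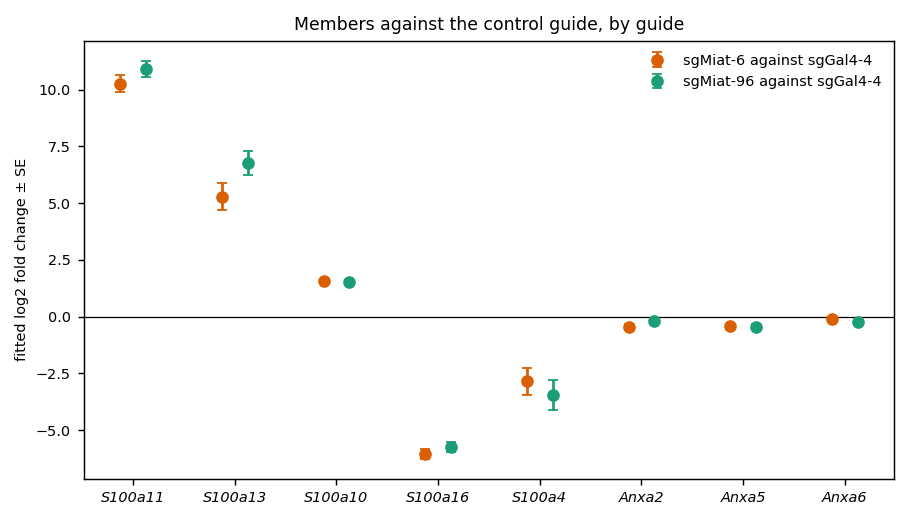
Fitted log2 fold change with its standard error for the 8 members in the fit, for each Miat guide against sgGal4-4. S100a11, S100a13 and S100a10 are higher with both guides, S100a16 and S100a4 are lower, and the 3 annexins lie close to 0.

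Of the 8 members in the fit, 3 were over 2-fold higher with the Miat guides, 2 were over 2-fold lower and 3 changed by less than 2-fold. No test was applied to these counts, since the contrast chose the set. Over all genes tested the median size of a log2 fold change was 0.54. The share of all genes beyond 2-fold is not given here, so the counts only describe the members. Both guides share the same control libraries, so that the like values of sgMiat-6 and sgMiat-96 are no independent repeats.

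Transcripts can be compared with each other after division by their length. In the control, the order by mean CPM per kilobase was S100a10 at 189 ± 0.664 (SD, n = 2), Anxa2 at 122 ± 2.75, Anxa5 at 101 ± 2.38, Anxa6 at 90.9 ± 1.90 and S100a16 at 60.1 ± 2.66, and these 5 levels were further apart than their spread. S100a4 followed at 2.61 ± 0.621 CPM per kilobase, and S100a1, S100a13, S100a11 and S100a6 had at most 0.165. With sgMiat-6 S100a10 led at 558 ± 51.7 CPM per kilobase. Anxa2 at 89.0 ± 9.87, Anxa6 at 84.2 ± 5.63, S100a11 at 78.8 ± 4.64 and Anxa5 at 76.2 ± 2.54 came next, and neighbours in that order did not differ beyond their spread. With sgMiat-96 S100a11 stood second, at 124 ± 21.9 CPM per kilobase behind S100a10 at 544 ± 47.4, and Anxa2 at 108 ± 7.52 was within its spread.

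S100a10 made up 75.8% and 74.3% of the summed S100 level per kilobase in the control libraries, 86.7% and 87.2% with sgMiat-6, and 79.3% and 81.2% with sgMiat-96. S100a11 went from 0% and 0.0394% of that sum in the control to 12.6% and 12.1% with sgMiat-6 and 19.1% and 17.2% with sgMiat-96. The sum over the 7 S100 genes was 249 and 255 CPM per kilobase in the control and between 601 and 729 in the Miat libraries. Over the 3 annexins it was 308 and 318 in the control and between 237 and 265 in the Miat libraries. The ratio of S100a10 to Anxa2 per kilobase was 1.58 and 1.54 in the control, 6.35 and 6.19 with sgMiat-6, and 5.12 and 5.0 with sgMiat-96. RNA ratios do not give the ratio of the proteins.

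**Figure D3:**
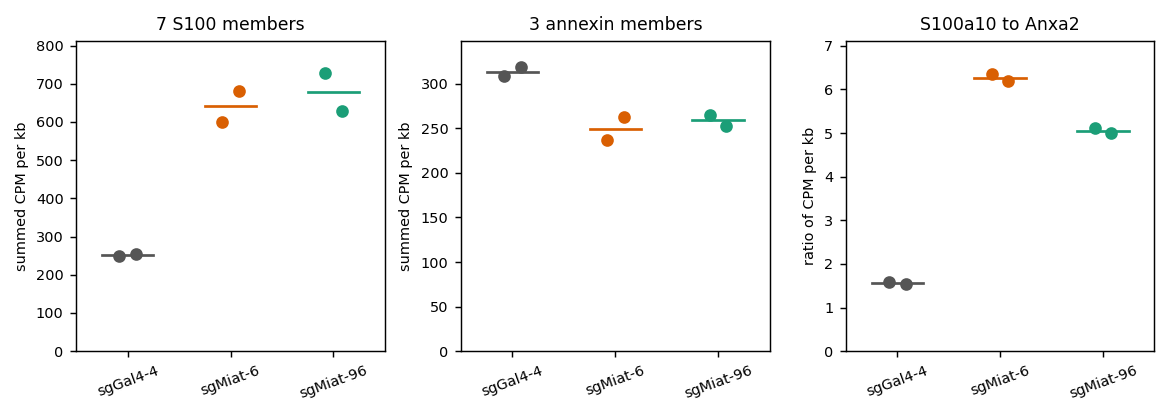
Summed level of the 7 S100 and the 3 annexin members in CPM per kilobase, and the ratio of S100a10 to Anxa2, with 1 point per library and a line at the mean. The S100 sum and the ratio are higher in all 4 Miat libraries than in the controls, and the annexin sum is lower.

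The comparison of sgMiat-96 with sgMiat-6 asked whether the guides left the family at the same level. In edgeR's quasi-likelihood test, with p-values adjusted over all 13220 genes by Benjamini-Hochberg, 2 of the 8 members were higher with sgMiat-96 and 0 were lower, against 17.8% higher, 18.8% lower and 36.7% called in all among tested genes. At an unadjusted p under 0.05, edgeR had 3 members higher and 0 lower, and DESeq2 called 2 higher and 0 lower. S100a13 was 2.80-fold higher with sgMiat-96, at 6.29 ± 0.406 against 2.24 ± 0.152 CPM (SD, n = 2 each; edgeR adjusted p = 0.00252). Its log2 difference was 1.49 ± 0.29 (SE), with a 95% interval of 0.58 to 2.40.

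S100a11 was 1.57-fold higher with sgMiat-96, at 62.3 ± 11.04 against 39.7 ± 2.34 CPM (SD, n = 2 each; edgeR adjusted p = 0.00532). Its log2 difference of 0.65 ± 0.15 (SE) was 0.45 without sgMiat-96 replicate 1, a fit that left 1 library in that group. It was 0.10 once a trend over transcript length was taken out (edgeR adjusted p = 0.54). S100 transcripts are short, with a median of 650 bases against 2844 for all tested genes, and their part in the trend was not tested. S100a13 kept its call with the length trend removed, at a log2 difference of 1.02 (edgeR adjusted p = 0.0204).

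The other 6 members did not pass the threshold between the guides. Anxa2 came nearest, with a log2 difference of 0.27 ± 0.11 (SE; edgeR adjusted p = 0.0714) that was -0.031 with the length trend removed. Without sgMiat-6 replicate 2 the Anxa2 difference was 0.38. For S100a10 the difference was -0.03, with a 95% interval of -0.38 to 0.31, and with the length trend removed it was called lower, at -0.52 (edgeR adjusted p = 0.000563). Anxa5 also lay at -0.03, with an interval of -0.36 to 0.29, and was called at -0.26 with the trend removed (edgeR adjusted p = 0.025). Anxa6 had -0.13 with an interval of -0.46 to 0.19. The intervals of S100a16, from -0.68 to 1.33, and of S100a4, from -3.60 to 2.39, are wide because few counts lay behind them.

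**Figure D4:**
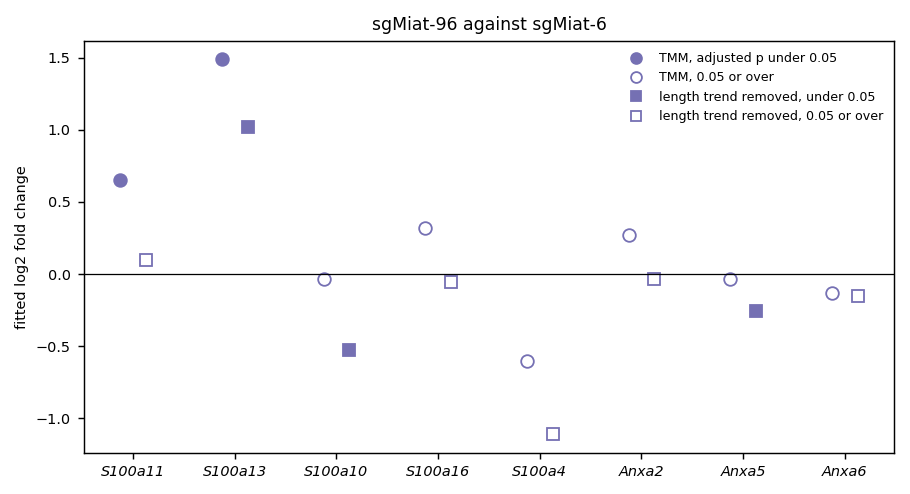
Fitted log2 fold change of sgMiat-96 against sgMiat-6 for the 8 members in the fit, with TMM scaling (circles) and after removal of a trend over transcript length (squares). Filled symbols have an adjusted p under 0.05, and of the calls made with TMM scaling that of S100a13 remains with the trend removed and that of S100a11 does not.

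The S100 genes of chromosome 3 sit in 2 places. S100a1, S100a13, S100a16, S100a4 and S100a6 lie within 113.1 kb, and S100a11 and S100a10 lie 2.90 Mb further along, 28.8 kb from each other. Along the first group S100a13 (90514435 to 90524581) was near silent in the control and S100a16 (90537254 to 90543151), 12.7 kb away, was near silent with the Miat guides. S100a1 on the minus strand and S100a13 on the plus strand are arranged head to head, with RefSeq starts 105 bases apart, and the start window of one shares 204 bases with that of the other. The pair differed in level, S100a1 having 17 counts in both sgMiat-96 libraries together where S100a13 had 221. S100a14, S100a5, S100a7a, S100a8 and S100a9, in and beside the same stretch, had 0 counts in all libraries, and S100a3 had 2 counts in all.

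**Figure D5:**
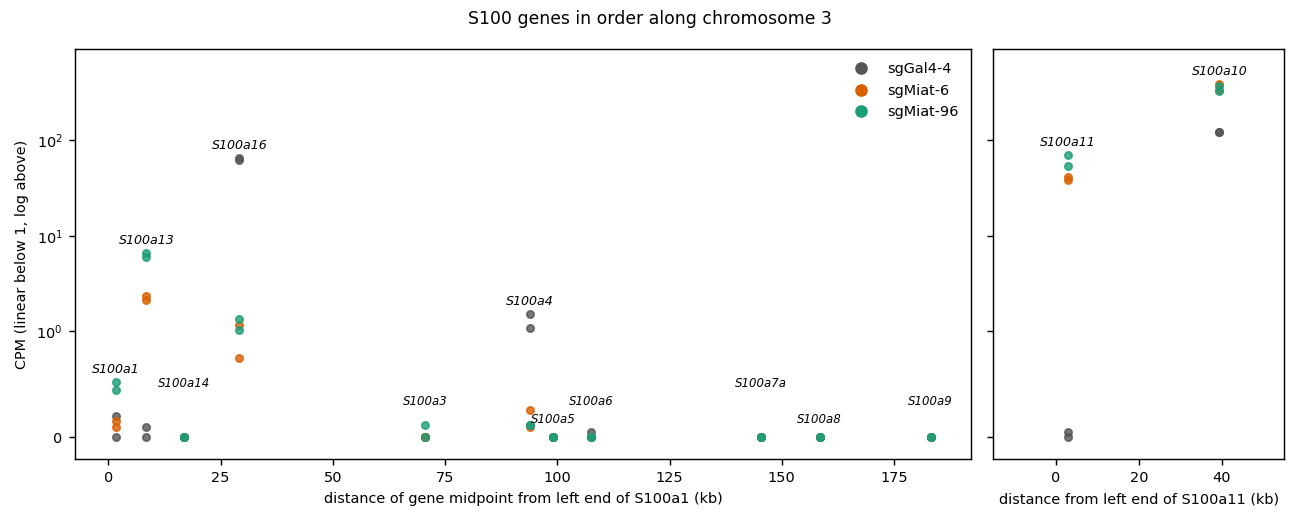
CPM of the S100 genes of chromosome 3 in every library, in their order along the chromosome, against the distance of each gene's midpoint from the left end of S100a1 (left) or of S100a11 (right) in kilobases. The vertical axis is linear below 1 CPM and logarithmic above. S100a13 and S100a16, with S100a14 at 0 counts between them, take opposite places for control and Miat libraries.

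Other genes around the S100 genes were tested in the comparison of both Miat guides with sgGal4-4. Of 38 annotated neighbours within 500 kb, 18 were tested, and 10 of these rose and 3 fell, a share of 72.2% called where 66.5% of all genes tested were called in either direction, 33.1% higher and 33.4% lower. Their median log2 fold change was 0.33 and that of all genes 0.00. With total counts in place of TMM 6 rose. Gatad2b, a subunit gene of the NuRD chromatin complex, had 36.9 ± 2.46 CPM in the control, 12.6 ± 5.93 CPM with the guide sgMiat-6 and 3.25 ± 0.866 CPM with the guide sgMiat-96, and fell (SD, n = 2 each; edgeR adjusted p = 4.07e-07). Slc27a3, of the fatty acid transport family, rose by 1.50 ± 0.29 on the log2 scale (SE; edgeR adjusted p = 0.000554), and Npr1, a natriuretic peptide receptor gene, by 1.22 ± 0.26 (edgeR adjusted p = 0.000938). Rps27, a ribosomal protein gene with pseudogene copies that leave its level uncertain, rose by 0.77 ± 0.11 (edgeR adjusted p = 5.94e-05). Of the skin barrier genes around S100a11, Hrnr, Rptn, Flg2, Crnn and Tchhl1 had 0 counts, and Tchh had 0 and 6 counts in the control and between 1 and 11 in the Miat libraries.

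The remaining genes of both families, 9 S100 and 9 annexin genes, were tested against the control as well. Of these 18, 5 had enough counts, and 4 rose and 0 fell in edgeR (0 lower also at an unadjusted p under 0.05 and 0 lower in DESeq2). Among all genes tested 33.1% were called higher and 33.4% lower. Anxa7 and Anxa11 passed the filter on low counts through the Miat libraries alone, where they are high, so the count of 4 is a description. With a filter of at least 5 CPM in 2 libraries 2 rose. Anxa7, an annexin of secretory granules, had 5 and 6 counts in the control and between 378 and 542 in the Miat libraries. Its level was 0.281 ± 0.0328 CPM in the control, 26.8 ± 1.19 CPM with the guide sgMiat-6 and 23.1 ± 1.79 CPM with the guide sgMiat-96 (SD, n = 2 each). Its fitted log2 fold change was 6.44 ± 0.24 (SE), given as a description because of that filter. No control library overlapped a Miat library.

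S100b, the S100 protein used as a glial marker, had 18.3 and 19.1 CPM in the control, 47.9 and 60.4 with sgMiat-6, and 67.5 and 61.0 with sgMiat-96, and rose by 1.66 ± 0.13 on the log2 scale (SE; edgeR adjusted p = 1.67e-07). Anxa9, on chromosome 3, rose from 1.66 ± 0.739 CPM to 2.84 ± 0.165 and 4.93 ± 0.696 (SD, n = 2 each; edgeR adjusted p = 0.00268 for both guides). With sgMiat-6 alone it did not pass, at a log2 fold change of 0.78 ± 0.33 (SE; edgeR adjusted p = 0.0608). Anxa11, the partner of S100a6, had 0 control counts and 54 counts in the Miat libraries, at least 9.41-fold higher against a floor of 3 counts over the control group. Anxa1, the partner of S100a11, did not pass, at 17.8 ± 0.982 CPM in the control, 13.7 ± 0.539 CPM with the guide sgMiat-6 and 17.3 ± 1.65 CPM with the guide sgMiat-96 (SD, n = 2 each; edgeR adjusted p = 0.16). Taken alone, sgMiat-6 lowered it by a called log2 fold change of -0.38 (edgeR adjusted p = 0.0467).

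Binding partners, targets and receptors of the 2 families were counted next. Of 29 genes listed 23 were tested, and 7 rose and 13 fell with the Miat guides, a median log2 fold change of -0.73. Ahnak and Plaur, among those that fell, passed the filter on low counts through the control libraries alone, where they are high, so the count of 13 is a description. Kcnk3, a potassium channel carried to the membrane with S100a10, had 6.11 ± 1.05 CPM in the control against 0.526 ± 0.238 and 0.542 ± 0.131 CPM with the Miat guides, and fell (SD, n = 2 each; log2 fold change -3.50 ± 0.29, SE; edgeR adjusted p = 3.19e-07). Tlr4, a receptor of secreted S100 proteins, fell from 51.1 ± 0.627 CPM to 19.5 ± 5.40 and 11.9 ± 2.07 (edgeR adjusted p = 3.99e-07). Capn1, a calcium-dependent protease, fell by 1.67 ± 0.18 (SE; edgeR adjusted p = 4.3e-06), and Fgf1, whose release involves S100a13, fell by 1.16 ± 0.11 (edgeR adjusted p = 1.69e-06).

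Calcium sensors with EF-hands outside the S100 family moved in both directions. Of 30 listed 28 were tested, and 14 rose and 6 fell, with a median log2 fold change of 0.24. Tesc, a calcineurin-like sensor gene, had 6 control counts and a fitted log2 fold change of 4.21 ± 0.47 (SE). Tesc, Pvalb and Necab1, all among the 14, passed the filter on low counts through the Miat libraries alone, so the count of 14 is a description. The genes Sri, which encodes sorcin, and Hpcal1 rose on the log2 scale by 1.21 ± 0.12 (SE; edgeR adjusted p = 1.65e-06) and 1.08 ± 0.11 (edgeR adjusted p = 1.61e-06). Calml4, a calmodulin-like gene, fell from 7.17 ± 0.819 CPM to 1.39 ± 0.277 and 1.36 ± 0.216 (SD, n = 2 each; edgeR adjusted p = 9.77e-07). With total counts in place of TMM 10 fell, and with the length trend removed 9 rose. The share called in this list was 71.4%, and in the list of partners 87%, beside 66.5% of all genes tested. Both shares include the genes named above that passed the filter through the Miat or the control libraries alone, and are a description.

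S100 genes and annexins are also abundant in fibroblasts, glia and macrophages, so markers of these cells were summed in every library. The 12 fibroblast and meningeal markers summed to 1732 and 1786 CPM in the control and between 2844 and 3485 CPM with the Miat guides. Vim, which neural stem cells also express, gave most of that sum. Of the 7 tested 4 rose and 3 fell, 100% called beside 66.5% of all genes tested. Thy1, Pdgfra and Col3a1 passed the filter on low counts through the Miat libraries alone, where they are high, so these counts are a description. Besides Vim, Thy1 had 0.206 CPM in the control and 26.0 and 45.0 CPM with sgMiat-6 and sgMiat-96, Pdgfra 0.0511, 8.09 and 4.62 CPM, and Col3a1 0.0760, 0.628 and 1.02 CPM. The 3 that fell were Fbln1, from 243 CPM in the control to 93.4 and 131 CPM, Islr, from 10.6 to 1.86 and 1.88 CPM, and Col1a1, from 8.67 to 0.524 and 0.603 CPM. Col1a2, Dcn, Lum, Pdgfrb and Postn were at most 0.152 CPM in any library. The 12 microglia and macrophage markers summed to between 2.13 and 6.75 CPM in all libraries, with Cx3cr1, C1qa, C1qb, C1qc and Tyrobp at 0. The 10 endothelial markers summed to between 13.1 and 18.4 CPM, with Cldn5 at 0.

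The 12 astrocyte markers summed to 4488 and 4315 CPM in the control and between 1219 and 1322 CPM with the Miat guides. Of the 11 tested 10 fell, 90.9% where 33.4% of all genes were called lower, the same direction as S100a16 and the opposite of S100b. Gfap and Aqp4, among the 10, passed the filter on low counts through the control libraries alone, where they are high, so the count of 10 is a description. The guides were not alike for each marker. Aldoc had 496 CPM in the control, 292 with sgMiat-6 and 482 with sgMiat-96, and Slc4a4 had 28.9, 37.1 and 21.9 CPM. The 10 oligodendrocyte lineage markers summed to 2146 and 2071 CPM in the control, 3187 and 3341 with sgMiat-6, and 4859 and 4955 with sgMiat-96, the order in which S100a11 and S100a13 also stood. Olig1 and Olig2 gave most of that sum. Of the 6 tested 3 rose and 2 fell, 83.3% called beside 66.5% of all genes: Bcas1 went from 2.32 CPM to 82.2 and 104 CPM, Cnp from 38.3 to 2.25 and 3.91 CPM and Cspg4 from 130.2 to 37.9 CPM with either guide. The genes Sox10, Mag, Mog and Mbp were at most 0.304 CPM in any library. The part of these shifts in the levels of the S100 genes was not tested.

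The 5 tested genes whose pattern over the 6 libraries was most like that of S100a11 were found by the mean absolute difference in log2(CPM + 0.5), each gene centred on its own mean. They were Dbx2, with a difference of 0.12, Map1lc3a with 0.14, Ddt and Flot2 with 0.20, and Aldh2 with 0.26. They lie on chromosomes 15, 2, 10, 11 and 5, none of them the chromosome of S100a11. Dbx2 had 3 and 9 counts in the control and between 1185 and 1793 in the Miat libraries, and Aldh2 had 0 and 1 in the control and between 1102 and 1431.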

How the data were processed

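RNA-seq was done on 6 libraries, 2 for each of 3 guides. The submitters' processing notes name STAR and the build GRCm38 (mm10). No source used here gives versions, the counter or the strand setting. Per the file headers, the authors deposited counts, FPKM and TPM for 33984 RefSeq transcripts. No result uses the deposited TPM, and the deposited FPKM gave only transcript lengths and zeros. For sgMiat-96 replicate 2 the table lists 1 count in 11223 rows whose FPKM is 0, and these were set to 0. Isoform rows share reads, so the row with the highest total count was kept per symbol.

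Counts were fitted with edgeR 4.0.16 (limma 3.58.1, R 4.3.3) as 3 groups after filterByExpr and TMM, with a prior count of 0.125, 3 residual degrees of freedom and an adjusted p threshold of 0.05 over 13220 genes. The median transcript length is 2844 bases. Standard errors were derived from the log2 fold change and F. On simulated data for sgMiat-96 against sgMiat-6 (12969 genes), 92.6% of 108 genes changed 2-fold and 98.9% of 90 changed 4-fold were recovered, and 14 of 203 calls were false. The simulation used the same dispersion for all genes, pooled the means over all libraries and changed few genes, while 36.7% were called in the data. Its recovery may not hold for members with few counts in the Miat libraries. DESeq2 1.42.0 was an alternative, with other scaling, filters, rows, a loess length trend (span 0.3), a replicate block and left-out libraries.

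The members and lists were chosen with earlier results of these data known. Named were all members, other S100 or annexin genes that were called, and up to 4 called genes per further list by size of change with a mean of at least 2 CPM. Positions are from GENCODE M21 (GRCm38) and start windows from RefSeq (GRCm38.p6), which held 8 of the 10 members. The chi-square per gene between replicates lay above sampling noise, at 4.13 (sgGal4-4), 19.1 (sgMiat-6) and 14.0 (sgMiat-96).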

Additional observations from a re-analysis of the deposited data

Results flagged for a closer look

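Between the Miat guides, 2 members differed by the test of the difference itself. S100a13 was higher with sgMiat-96 than with sgMiat-6 by 1.49 on the log2 scale, and S100a11 by 0.65. The S100a11 difference was 0.10 with the length trend removed (edgeR adjusted p = 0.54) and was not called there. It was 0.45 without sgMiat-96 replicate 1, a fit that left 1 library in that group. Both sgMiat-96 libraries lay above both sgMiat-6 libraries for each gene. Groups of 2 libraries are too small for a check of single outlying libraries.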

How the results depend on the processing

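Against the control, none of the 8 fitted members changed direction under the alternatives that gave a value; S100a4 was too low for the stricter filter, and S100a1 and S100a6 were not fitted. With total counts in place of TMM the median log2 fold change of all genes was -0.13, while S100a10 had 1.41, Anxa2 -0.44, Anxa5 -0.55 and Anxa6 -0.30. Between the Miat guides with the length trend removed, 1 member was higher and 2 were lower, and S100a16 and Anxa2 reversed to -0.057 and -0.031. Over the left-out libraries S100a4 ranged from -1.12 to 0.17 (reversed without sgMiat-6 replicate 2), S100a10 from -0.13 to 0.049 (0.048 without sgMiat-6 replicate 2, 0.049 without sgMiat-96 replicate 2) and Anxa5 from -0.11 to 0.032 (reversed without sgMiat-96 replicate 2). None of the reversed values was called, and the causes were not tested. S100a11 ranged from 0.45 to 0.82 and S100a13 from 1.42 to 1.55 over the left-out libraries. Each such fit leaves 1 library in a group, so counts of calls are not given for it. Calls among all genes also varied with the library left out. At a stricter filter 2 other S100 and annexin genes rose, and 1 fell with total counts or the length trend removed; 9 other calcium sensors rose with the trend removed, and 10 fell with total counts. Of the chromosome 3 neighbours 6 rose with total counts. Over the left-out libraries between 6 and 11 of them rose (6 without either sgGal4-4 library) and between 1 and 3 fell (1 without sgGal4-4 replicate 2). With the 4 Miat libraries alone the adjusted p of S100a11 was 0.00117, and 2 members were called higher. With the replicate block 2 members were called higher; the numbers pair no cultures in the labels, and the deviations correlated at 0.04, -0.13 and -0.28 between groups. S100a1 and S100a6 are limited by depth.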
